A study of Mus musculus with 6 samples.

Results

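The microRNAs (miRNAs) that share gene clusters with let-7 in the mouse genome are mmu-miR-99a, mmu-miR-99b, mmu-miR-100, mmu-miR-125a and mmu-miR-125b, written without the mouse prefix from here on. Their rows were chosen by name from the miRNA table, with any arm or copy number, which gave 10 features (5 from the 5p arm and 5 from the 3p arm of the hairpin) of 778 in all. The samples were mature sperm from the cauda epididymis, where sperm are stored, of 8-week-old male mice labelled C57BL/6 (C57BL/6J in the series text). The 3 normal samples came from normal mice and the 3 stress samples from mice with depression induced by stress; no other genotype, treatment or handling is given for either group, nor how the stress was applied. Nothing states that the replicates were different animals, and the p-values below are therefore about the scatter among these 6 samples, which could be technical.

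A miRNA hairpin is cut into a 5p and a 3p arm, and usually the arm that is kept guides the silencing of mRNAs that pair with its seed, bases 2 to 8. The let-7 and miR-125 families are the mammalian relatives of the worm timing genes let-7 and lin-4. They are known for acting on growth and differentiation genes, and miR-99 and miR-100 are known for repressing mTOR. In the mouse, each of 3 clusters holds a member of miR-99/100, a let-7 and a member of miR-125 on the same strand, so that the partners can be made from shared precursor transcripts.

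The guide arms fall into families by their seed, and the deposited sequences are shown to mark which members can act on the same sites. They are written 5′ to 3′ with the seed in capitals, and all are the same as the RefSeq mature sequences for GRCm38.p6.
miR-99a-5p: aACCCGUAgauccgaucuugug
miR-100-5p: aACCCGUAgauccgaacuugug
miR-99b-5p: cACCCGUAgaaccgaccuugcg
miR-125a-5p: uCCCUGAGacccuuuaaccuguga
miR-125b-5p: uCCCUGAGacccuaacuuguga
miR-351-5p: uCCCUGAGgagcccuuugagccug
let-7a-5p: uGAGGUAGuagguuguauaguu
let-7c-5p: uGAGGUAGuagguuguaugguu
let-7e-5p: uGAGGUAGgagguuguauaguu
miR-10a-5p: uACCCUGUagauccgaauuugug

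Counting from 1 at the 5′ end, miR-99a-5p and miR-100-5p differ by U16A alone, while miR-99b-5p differs from miR-99a-5p by A1C, U11A, U16C and U21C, all outside the seed. miR-125a-5p and miR-125b-5p share their first 13 bases. The only other feature of the table with either seed was miR-351-5p, which shares its first 8 bases with miR-125a-5p. miR-10a-5p and miR-10b-5p, Hox cluster miRNAs often grouped with miR-99/100, have the seed ACCCUGU instead of ACCCGUA. let-7c-5p differs from let-7a-5p by G19A, and let-7a-5p from let-7e-5p by U9G. Because of such likeness reads can be split between features: miR-99a-5p and miR-100-5p held fractional counts in 3 of 6 samples each, and the single values of these 2 miRNAs are uncertain to that extent, whereas the other 8 features had whole counts throughout.

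The clusters differ in size (RefSeq genes, GRCm38.p6; host genes from GENCODE M21). On chromosome 17 the hairpins of miR-99b, let-7e and miR-125a lie within 692 bases, all on the strand of Spaca6, which encodes a membrane protein of sperm. miR-99b-5p (17830194 to 17830215) and let-7e-5p (17830366 to 17830387) are intronic there, and miR-125a-5p (17830817 to 17830840) lies in a hairpin that overlaps an annotated Spaca6 exon. On chromosome 16 the hairpins of miR-99a, let-7c-1 and miR-125b-2 span 47408 bases in introns of the noncoding Mir99ahg. There miR-99a-5p is at 77598940 to 77598961, and 656 bases separate its hairpin from that of let-7c-1; miR-125b-5p is at 77646279 to 77646300, where the hairpin also overlaps an exon of the unclassified transcript C130023A14Rik. On chromosome 9 the hairpins of miR-100, let-7a-2 and miR-125b-1 span 50578 bases in introns of the noncoding 3110039I08Rik. The miR-125b-1 hairpin also overlaps an exon of Gm28119, a sense intronic transcript on the same strand. miR-100-5p is at 41531437 to 41531458 and miR-125b-5p at 41581940 to 41581961; on the other strand the miR-100 hairpin overlaps an exon of the noncoding Gm48742. miR-125b-5p therefore comes from 2 loci, and let-7c-5p has a further locus on chromosome 15 (85706616 to 85706637). let-7a-5p has a locus on chromosome 13 (48538239 to 48538260), outside the chromosome 9 cluster. The RefSeq annotation used marks let-7a-5p only there, and for the let-7a-2 hairpin it marks only let-7a-2-3p. Only the chromosome 17 cluster thus has a guide arm of its own for all 3 partners.

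The libraries held 1010203 to 3067208 miRNA reads, and 2 normal libraries stood apart, each by a different measure. By a chi-square of the counts per degree of freedom, normal replicate 1 was far from all others (594.6 and 792.0 to its own group, 847.5 to 1306 to the stress samples), while normal replicates 2 and 3 were at 112.0 from each other. Normal replicate 3, the deepest, lay nearest to normal replicate 2 on that measure, but across miRNAs it correlated with stress replicate 2 (r = 0.972 over log2 CPM, counts per 1000000 miRNA reads, miRNAs not being independent replicates) above its r of 0.968 and 0.966 with normal replicates 1 and 2. By this correlation normal replicate 1 was about as near to its own group (r = 0.962 and 0.968) as normal replicates 2 and 3 were to each other. With the stress samples it had r of 0.922 to 0.930. All 22 features from the names listed for sperm and male germ cells had reads, and they took 0.676% to 0.883% of the miRNA reads in normal and 0.710% to 0.863% in stress samples. With TMM scaling (below) their summed level was 7851 to 12903 CPM in normal and 5150 to 6930 in stress samples, and 3 of the 18 tested were called lower and 0 higher. As shares of the reads, miR-34c-5p stood at 231.3 to 491.6 CPM in normal and 597.9 to 778.3 in stress samples and miR-871-3p at 429.7 to 702.8 and 322.4 to 405.4 CPM. Markers of other cells were present too. As a percent of the miRNA reads, epithelial markers took 1.24 to 1.75 in normal and 2.91 to 3.22 in stress samples, stromal, smooth muscle and endothelial markers 0.268 to 0.496 and 0.934 to 1.09, and leukocyte markers 0.036 to 0.0814 and 0.135 to 0.189, each without overlap. Red blood cell markers (0.0341 to 0.102 and 0.0268 to 0.0817) and neural markers (0.0759 to 0.148 and 0.134 to 0.151) overlapped, with miR-124-3p at 0 in all normal samples. None of the 11 epithelial, 11 stromal or 8 leukocyte features was at 0 in every sample. With TMM scaling the summed epithelial markers overlapped (18126 to 22014 CPM in normal, 21946 to 24939 in stress samples), the stromal (3461 to 6738 and 7230 to 7982) and leukocyte sums (517.5 to 932.3 and 1046 to 1359) did not, and 0 of 8 epithelial, 2 of 8 stromal (both higher) and 0 of 5 leukocyte features tested were called.

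Levels below are CPM scaled by TMM, a method that sets most miRNAs to no change between samples, unless a share of the miRNA reads is named. A read covers a whole mature miRNA, so no length enters, but sequences differ in how well they are ligated and the order is one of reads. In normal sperm miR-99a-5p was highest at 6163 ± 1964 CPM (SD, n = 3), then miR-100-5p at 5580 ± 1127, miR-99b-5p at 4115 ± 1133, miR-125a-5p at 3757 ± 1233 and miR-125b-5p at 2672 ± 695.3 CPM. No neighbours in that order differed beyond their spread. In stress sperm miR-100-5p came first at 6317 ± 970.5 CPM, followed by miR-99a-5p at 5761 ± 145.9, miR-99b-5p at 3417 ± 482.1, miR-125b-5p at 2740 ± 363.9 and miR-125a-5p at 2069 ± 778.8 CPM. There only the step from miR-99a-5p down to miR-99b-5p was free of overlap among neighbours. The 5 guide arms ranked between 16 and 36 of the 778 features in every sample, so that they belong to the abundant but not the dominant sperm miRNAs.

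The 3p arms were far lower. miR-125b-1-3p stood at 103.7 ± 11.3 and miR-99b-3p at 100.8 ± 50.02 CPM in normal sperm, above miR-125a-3p at 16.9 ± 3.65 and miR-125b-2-3p at 6.18 ± 2.62 CPM. In stress sperm the order was miR-99b-3p (96.3 ± 8.28 CPM), miR-125b-1-3p (49.3 ± 6.59), miR-125a-3p (10.003 ± 2.44) and miR-125b-2-3p (8.30 ± 0.982), and the first 3 of these did not overlap with each other. miR-100-3p had 0, 1 and 0 reads in the normal and 0, 3 and 0 reads in the stress replicates, and was the only member left out by the filter on low counts.

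**Figure D1:**
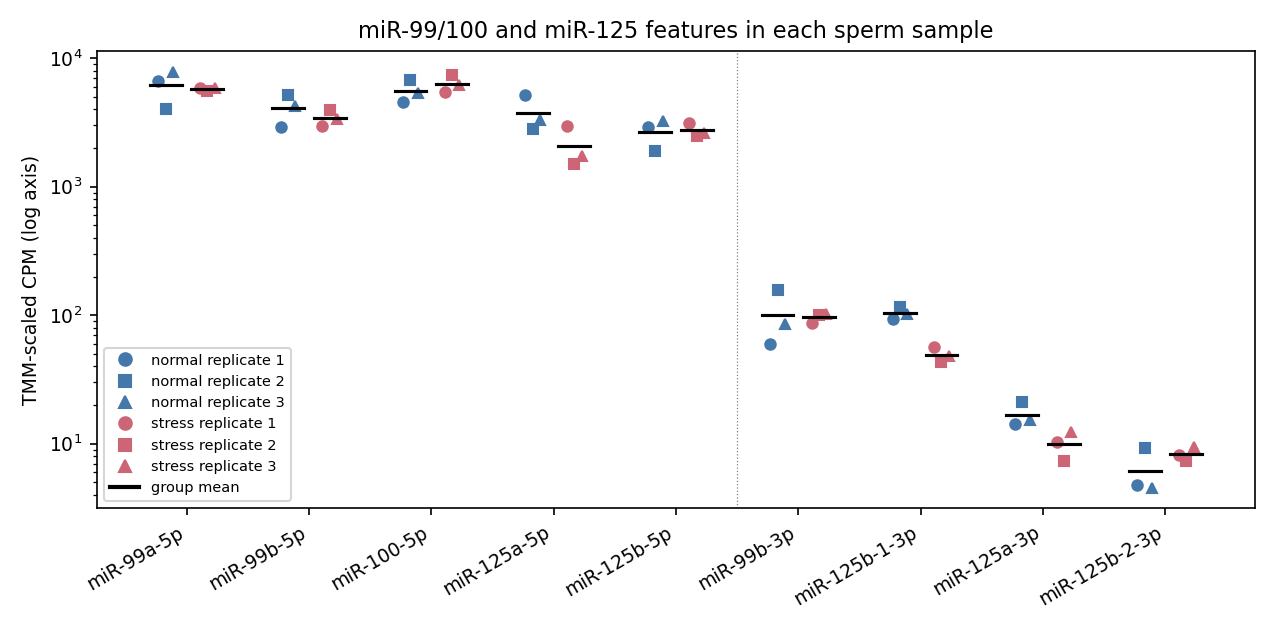
TMM-scaled CPM (log axis) of the 9 tested features in the 3 normal and 3 stress samples, 5p arms left and 3p arms right of the dotted line; points are samples and bars are group means. The stress samples of miR-125b-1-3p, at 43.3 to 56.4 CPM, lie below all its normal samples, at 93.2 to 115.7 CPM, while the other features overlap except miR-125a-3p.

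Whether stress shifted these miRNAs was tested for each feature in edgeR (quasi-likelihood test, adjusted over all tested miRNAs, threshold 0.05). Of the 9 tested features 1 fell, 0 rose and 8 did not pass; over all 236 miRNAs tested 12.7% passed, 10.2% lower and 2.54% higher in stress. The median log2 fold change of the 9 was −0.10, and that of all tested miRNAs was 0.00. The groups did not overlap for 2 of the 9 (miR-125b-1-3p and miR-125a-3p), against 39.4% of all tested miRNAs. Neither count stands above the background of the table.

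The feature that fell was miR-125b-1-3p, the passenger arm of the chromosome 9 copy of miR-125b (41581980 to 41582001). Its normal replicates stood at 93.2, 115.7 and 102.0 CPM and its stress replicates at 56.4, 43.3 and 48.2 CPM. All stress samples were below all normal samples, with little spread in either group. The log2 fold change was −1.07 ± 0.27 SE (edgeR adjusted p = 0.024, n = 3 per group), and −1.06 without normal replicate 3 (adjusted p = 0.031). It did not pass without stress replicate 1, 2 or 3 (adjusted p = 0.053, 0.0997 and 0.10) or with all low miRNAs kept (adjusted p = 0.059). Scaled to the miRNA total, where its normal replicates stood at 72.0, 79.1 and 87.7 CPM and its stress replicates at 72.7, 53.9 and 66.3 CPM, the groups overlapped and the log2 fold change was −0.31 (adjusted p = 0.37); scaled to estimated totals of the miRNA, piRNA and tsRNA tables it was −0.91 or −1.05 (adjusted p = 0.31 and 0.93).

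miR-125a-5p, a guide arm and the partner of let-7e, stood at 5153, 2815 and 3305 CPM in the normal and 2958, 1507 and 1742 CPM in the stress replicates. Stress replicate 1 lay above normal replicate 2, so the groups overlapped. The log2 fold change was −0.86 ± 0.33 SE and did not pass in edgeR (adjusted p = 0.11, n = 3 per group). It passed without stress replicate 1 (−1.19, adjusted p = 0.041) and with all low miRNAs kept (adjusted p = 0.029), but not without any other replicate. The change was −0.58 without normal replicate 1 (adjusted p = 0.24), −1.01 without normal replicate 2 (0.11) and −0.91 without normal replicate 3 (0.099). Without stress replicate 2 it was −0.69 (adjusted p = 0.31) and without stress replicate 3 −0.76 (0.27). Its 3p arm, miR-125a-3p, had 14.3, 21.0 and 15.2 CPM in the normal and 10.4, 7.40 and 12.2 CPM in the stress replicates, without overlap and without a call (−0.74 ± 0.41 SE, edgeR adjusted p = 0.23). These are 12 to 40 reads a sample, so the counting error of each value is large.

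The miR-99/100 guide arms and miR-125b-5p had small fold changes with wide errors. For miR-100-5p the normal replicates stood at 4575, 6800 and 5366 CPM and the stress replicates at 5415, 7344 and 6191 CPM. In both groups replicate 2 was highest, and the ranges overlapped (0.18 ± 0.24 SE, adjusted p = 0.64 in edgeR). miR-99a-5p stood at 6605, 4017 and 7868 CPM in normal and at 5851, 5592 and 5838 CPM in stress replicates. The stress samples lay close together inside the range of the normal samples (−0.10 ± 0.26, adjusted p = 0.82 in edgeR; 0.15 without normal replicate 3). miR-99b-5p, at 2931, 5190 and 4224 CPM in normal and 2978, 3933 and 3341 CPM in stress replicates, was at −0.27 ± 0.26 (adjusted p = 0.52 in edgeR). miR-125b-5p, the guide arm made from the same hairpins as miR-125b-1-3p and miR-125b-2-3p, stood at 2894, 1893 and 3229 CPM in normal and 3153, 2465 and 2602 CPM in stress replicates. All its stress samples fell within the normal range (0.04 ± 0.26, adjusted p = 0.93 in edgeR). miR-99b-3p (−0.06 ± 0.35, adjusted p = 0.91) and miR-125b-2-3p (0.51 ± 0.52, adjusted p = 0.53) did not pass either. That these 6 features missed the threshold does not show that their levels were equal.

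The scaling mattered for direction. The TMM factors were 0.683 to 0.860 in normal and 1.24 to 1.38 in stress samples, and scaling to the miRNA total moved the median of all tested miRNAs to 0.76 on the log2 scale. On that scaling 1 of the 9 features was called higher and 0 lower in edgeR, where 44.9% of all tested miRNAs were called, 40.7% higher and 4.24% lower. It was miR-100-5p, at 3533, 4646 and 4613 CPM in normal and 6980, 9124 and 8522 CPM in stress replicates without overlap (0.94 on the log2 scale, adjusted p = 0.011), and thus close to the shifted median. miR-99a-5p, miR-99b-5p and miR-99b-3p turned from negative to positive there (0.62, 0.50 and 0.73), miR-125b-5p was at 0.76, and all of these missed the threshold. miR-125a-5p was at −0.11, and miR-125a-3p turned to 0.01. Against the median of all miRNAs, miR-125a-5p, miR-125a-3p and miR-125b-1-3p were the lowest 3 of the 9 under both scalings.

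**Figure D2:**
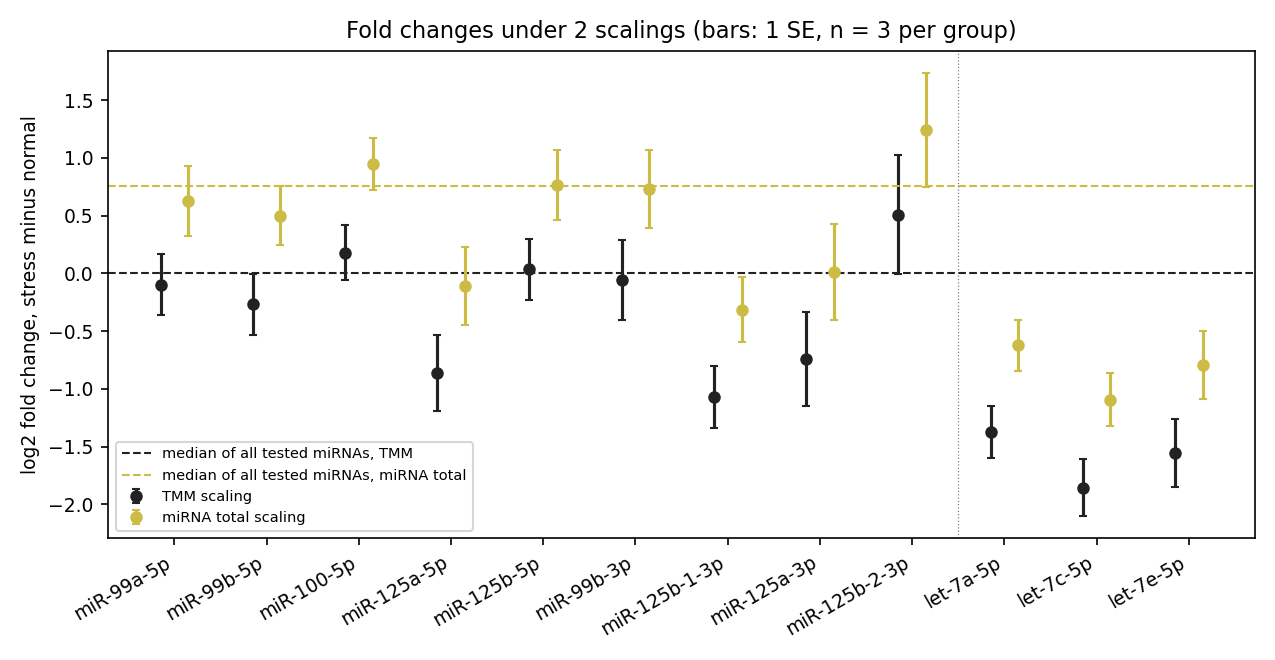
Log2 fold change, stress minus normal, of the 9 tested features and of the let-7 guide arms of the same clusters (right of the dotted line), in edgeR with TMM (black) and with the miRNA total (yellow); bars are 1 SE with n = 3 per group and dashed lines the median of all tested miRNAs. The points move up together with the median, from 0.00 to 0.76, and let-7a-5p, let-7c-5p and let-7e-5p stay below it.

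As shares of the miRNA reads, the miR-99/100 features together were higher in all stress samples than in all normal samples. In the normal replicates they took 1.09%, 1.10% and 1.51% of the reads, and in the stress replicates 1.85%, 2.11% and 2.13% (95% Wilson intervals of at most ± 0.0282 percentage points, for counting error only). The group means were 1.24% ± 0.236 (SD, n = 3) in normal and 2.03% ± 0.157 in stress sperm. The miR-125 features took 0.630%, 0.332% and 0.572% in normal and 0.797%, 0.501% and 0.608% in stress samples, and these overlapped. Of the 9 tested features 6 had every stress sample above every normal sample in share of the reads, beside 56.8% of all tested miRNAs. As a share of the reads outside let-7 and miR-148a, the miRNAs that held most reads, miR-99/100 took 4.71% ± 0.750 in normal and 5.19% ± 0.296 in stress samples and overlapped. The shares of the epithelial, stromal and leukocyte markers given above moved the same way as that of miR-99/100, and their part in it was not tested; in bulk sperm RNA, more cells of a type and more RNA per cell cannot be told apart.

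Ratios between partners of a cluster are taken within a sample and need no scaling. That let-7a, let-7c and let-7e guide arms were lower in stress was known when the ratios were chosen (−1.38, −1.86 and −1.56 on the log2 scale with TMM, adjusted p = 0.0044, 0.0032 and 0.0074 in edgeR), so they restate it in part. All 6 ratios to let-7 were higher in every stress sample than in every normal sample. Each had the smallest p that 3 samples against 3 allow (exact permutation p = 0.1, two-sided, and 0.117 after adjustment over the 7 ratios). With TMM the median log2 fold change of all tested miRNAs was 0.00, so a miRNA at that median would also rise against let-7. In share of the reads, 56.8% of all tested miRNAs had every stress sample above every normal sample. let-7c-5p (108700 to 200922 CPM in normal, 58104 to 77041 in stress) and let-7e-5p (2137 to 3963 and 1367 to 1891) had every stress sample below. At least those 56.8% thus also separate the groups against let-7c-5p and let-7e-5p, so these ratios are not particular to cluster partners. Shares of let-7a-5p overlapped, the number against it was not counted, and its ratios are not read as particular either.

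In the chromosome 17 cluster, miR-99b-5p reads per let-7e-5p read were 0.571, 1.66 and 1.56 in the normal and 2.03, 3.58 and 2.87 in the stress replicates. Normal replicate 1 was the lowest by far, and the mean difference was 1.27 on the log2 scale, 2.42-fold, but 0.78 without that replicate. miR-125a-5p per let-7e-5p was 1.004, 0.900 and 1.22 in normal and 2.02, 1.37 and 1.496 in stress replicates, 1.55-fold higher, with a narrow gap between the groups. The ratio of the outer partners, miR-99b-5p to miR-125a-5p, was 0.569, 1.84 and 1.28 in normal and 1.01, 2.61 and 1.92 in stress replicates. These overlapped (exact permutation p = 0.4, n = 3 per group), and the difference was 0.64 on the log2 scale, with SDs of 0.87 and 0.70; single libraries decided its size, since it was 0.16 without normal replicate 1, 0.33 without stress replicate 2, 1.01 without normal replicate 2 and 1.02 without stress replicate 1.

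In the larger clusters all ratios were below 1, far below it on chromosome 16, and they shifted more. On chromosome 16, miR-99a-5p per let-7c-5p was 0.0254, 0.0252 and 0.0569 in normal and 0.0979, 0.120 and 0.123 in stress replicates (3.40-fold). miR-125b-5p per let-7c-5p was 0.0111, 0.0119 and 0.0233 in normal and 0.0527, 0.0527 and 0.0548 in stress replicates (3.67-fold). In both, normal replicate 3 lay nearer to the stress samples than the other normal samples did; without it the differences were 2.16 and 2.21 on the log2 scale, against 1.77 and 1.87 with it. For the chromosome 9 partners, miR-100-5p per let-7a-5p was 0.0907, 0.177 and 0.141 in normal and 0.261, 0.522 and 0.441 in stress replicates (2.98-fold). miR-125b-5p per let-7a-5p was 0.0574, 0.0492 and 0.085 in normal and 0.152, 0.175 and 0.185 in stress replicates (2.74-fold). let-7c-5p and miR-125b-5p each come from more than 1 locus, and let-7a-5p has a locus outside the chromosome 9 cluster. Only the chromosome 17 ratios therefore compare miRNAs that each have 1 locus, within the cluster. Even there let-7e-5p held fractional counts, as with 4292.5 reads in normal replicate 1 and 2081.58 in stress replicate 2. Part of its count may thus be shared with other let-7 features, which was not resolved.

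**Figure D3:**
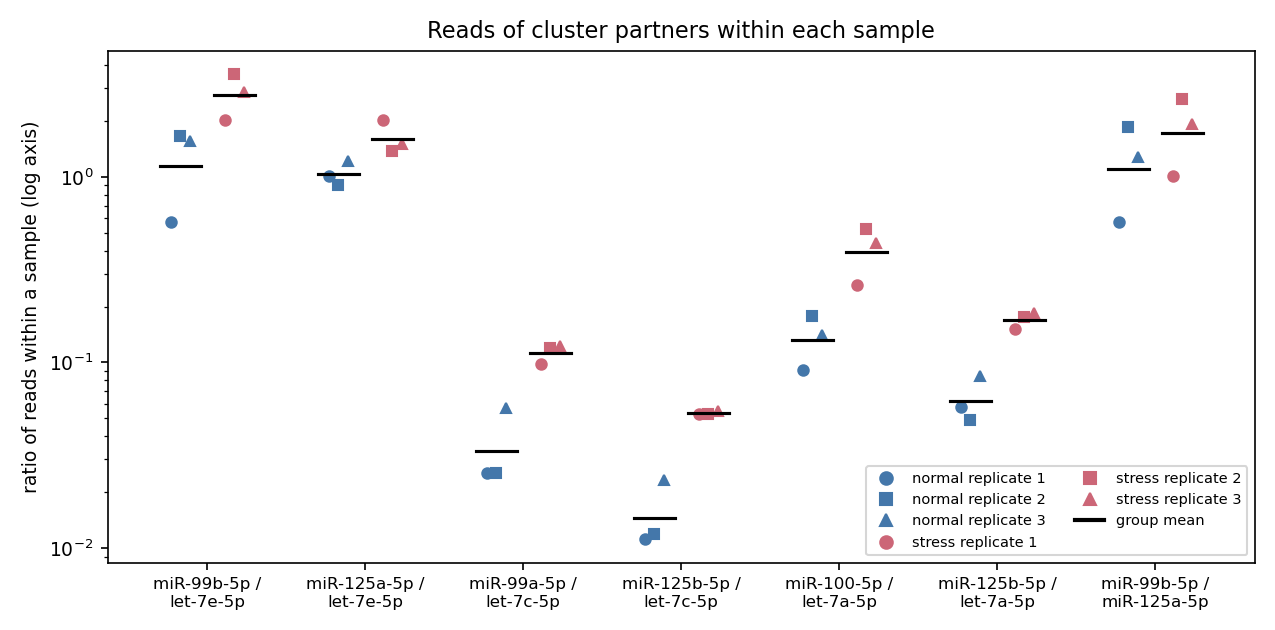
Ratio of reads of 2 cluster partners within each sample (log axis) for the 7 ratios, with normal samples in blue and stress samples in red; bars are geometric means. Every ratio to a let-7 guide arm is higher in all stress samples than in all normal samples, and miR-99b-5p to miR-125a-5p overlaps. At least 56.8% of all tested miRNAs also separate the groups against let-7c-5p and let-7e-5p.

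Of the 7 let-7a, let-7c and let-7e features in the table, in all arms and copies, 4 passed the filter on low counts and 3 of these fell, the guide arms named above. The combined let-7a-1-3p/let-7c-2-3p feature did not pass (−0.62 ± 0.36 SE, adjusted p = 0.24 in edgeR). miR-10a-5p (−0.33 ± 0.18, adjusted p = 0.22) and miR-10b-5p (−0.18 ± 0.18, adjusted p = 0.52), the relatives of miR-99/100, did not pass in edgeR with TMM. miR-351-5p, which shares the miR-125 seed, was at 33.6 ± 12.1 CPM in normal and 26.1 ± 3.65 CPM in stress sperm (SD, n = 3).

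Within a seed family the mix of members is also free of scaling. For the miR-125 seed, miR-125a-5p supplied 63.8%, 59.2% and 50.4% of the reads in the normal and 48.2%, 37.7% and 39.9% in the stress replicates (95% Wilson intervals of at most ± 1.60 percentage points). miR-125b-5p supplied 35.8%, 39.8% and 49.2% in normal and 51.4%, 61.6% and 59.6% in stress replicates. The member with more reads was thus miR-125a-5p in all normal samples and miR-125b-5p in all stress samples. In normal replicate 3 the lead was slight (8713 against 8513 reads), and that sample and stress replicate 1 were close to each other. The mix within the miR-125 seed was looked at after the values were seen and was not tested. miR-351-5p added 0.355% to 0.996% of the seed reads.

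For the miR-99/100 seed the mix overlapped throughout. miR-99a-5p supplied 39.0% ± 12.1 (SD, n = 3) in normal and 37.4% ± 3.99 in stress samples, miR-100-5p 35.2% ± 6.35 and 40.6% ± 2.77, and miR-99b-5p 25.8% ± 5.99 and 22.0% ± 1.22. Normal replicate 2 differed from the other samples, with miR-99a-5p at 25.1% and miR-99b-5p at 32.4% of the seed reads. By the median the stress samples varied less than the normal ones. Over the 9 tested features the median SD of log2 CPM was 0.42 in normal and 0.19 in stress sperm, close to the medians of all tested miRNAs (0.44 and 0.23). The SD was higher in stress for miR-125a-5p (0.45 in normal, 0.51 in stress), miR-125b-1-3p (0.15 and 0.19) and miR-125a-3p (0.28 and 0.32), and lower for the other tested features.

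**Figure D4:**
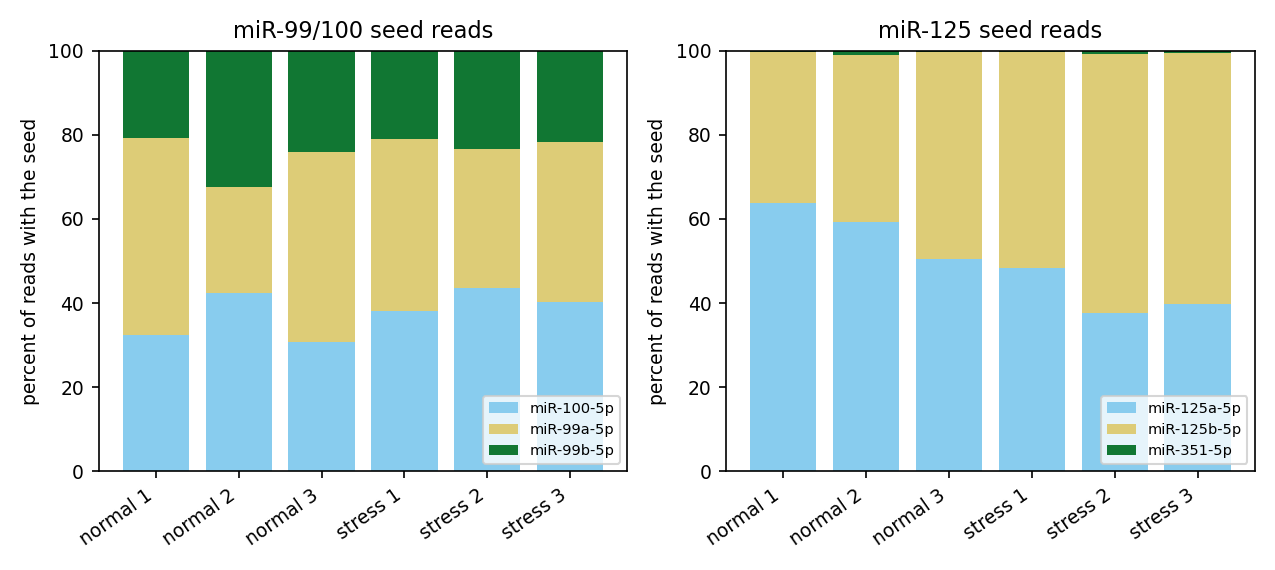
Percent of the reads with the miR-99/100 seed (left) and with the miR-125 seed (right) that each miRNA supplied, as stacked bars for the 6 samples. miR-125a-5p takes 50.4% to 63.8% of its seed's reads in normal and 37.7% to 48.2% in stress samples, whereas the miR-99/100 mix overlaps between groups.

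The 3p share of a hairpin's reads tells how the arms are balanced. It was tested for 4 base names with both arms among the features and at least 10 reads summed over the arms in every sample. For miR-125b, with the 3p arms of both copies summed, it was 3.28%, 6.19% and 3.20% in the normal and 2.01%, 2.02% and 2.16% in the stress replicates. The widest 95% Wilson interval ran from 5.09% to 7.51%, in normal replicate 2. All stress samples were lower and close together, at 2.06% ± 0.0875 (SD, n = 3) against 4.22% ± 1.71 (exact permutation p = 0.1, the smallest possible; 0.40 after adjustment over the 4 base names). Normal replicate 2 carried much of the difference, which was −2.16 percentage points with it and −1.17 without it. The 3p share overlapped between groups for miR-99b (2.31% ± 0.537 against 2.76% ± 0.253 under stress, exact permutation p = 0.3, n = 3 per group) and miR-125a (0.492% ± 0.234 and 0.512% ± 0.175, exact permutation p = 0.9, n = 3 per group). For miR-100 the 3p arm was at 0 in 4 of the 6 samples, where 0 reads allow a 3p share of 0.0212% to 0.0784%.

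The 3p arms of the 2 miR-125b copies have different sequences, shown here because they tell the loci apart where the guide arm cannot; capitals mark bases 2 to 8.
miR-125b-1-3p: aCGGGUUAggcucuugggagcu
miR-125b-2-3p: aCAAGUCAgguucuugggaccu
let-7c-1-3p: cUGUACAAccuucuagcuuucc

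miR-125b-1-3p, from chromosome 9, had 78, 88 and 269 reads in the normal and 76, 82 and 67 in the stress replicates. miR-125b-2-3p, from chromosome 16 (77646318 to 77646339), had 4, 7 and 12 reads in the normal and 11, 14 and 13 in the stress replicates. The chromosome 16 copy thus made up 4.88%, 7.37% and 4.27% of the 3p reads in normal and 12.6%, 14.6% and 16.3% in stress replicates. The groups did not overlap, but the 95% Wilson intervals of normal replicate 2 (3.61% to 14.4%) and stress replicate 1 (7.21% to 21.2%) did. Per 1000 miR-125b-5p reads, miR-125b-1-3p was at 32.2, 61.2 and 31.6 in normal and 17.9, 17.6 and 18.5 in stress replicates, whereas miR-125b-2-3p, at 1.65, 4.86 and 1.41 in normal and 2.59, 3.002 and 3.59 in stress replicates, overlapped. let-7c-1-3p, the 3p arm of the let-7c copy in the same chromosome 16 cluster (77599717 to 77599738), had 0 reads in all normal and 8, 4 and 7 reads in the stress replicates; 0 reads allow up to 2.77, 2.70 and 0.978 CPM as a share of the miRNA reads in the normal replicates, and the stress replicates stood at 7.65, 2.63 and 6.93 CPM on that scale. On average the chromosome 16 copy made up 5.51% ± 1.64 (SD, n = 3) in the normal group and 14.5% ± 1.80 in the stress group. Any 3 samples against 3 without overlap give an exact permutation p of 0.1, so that test adds nothing to the separation already seen. let-7c-1-3p, left out by the filter on low counts, passed in edgeR with all low miRNAs kept (adjusted p = 0.029), where 49 of 775 miRNAs were called. In that fit miR-125b-2-3p, from the same cluster, did not pass (adjusted p = 0.70 in edgeR). For let-7c-1-3p stress replicate 2, at 2.63 CPM, lay below the limits of normal replicates 1 and 2. The copies were compared after their values were seen and the counts are small.

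**Figure D5:**
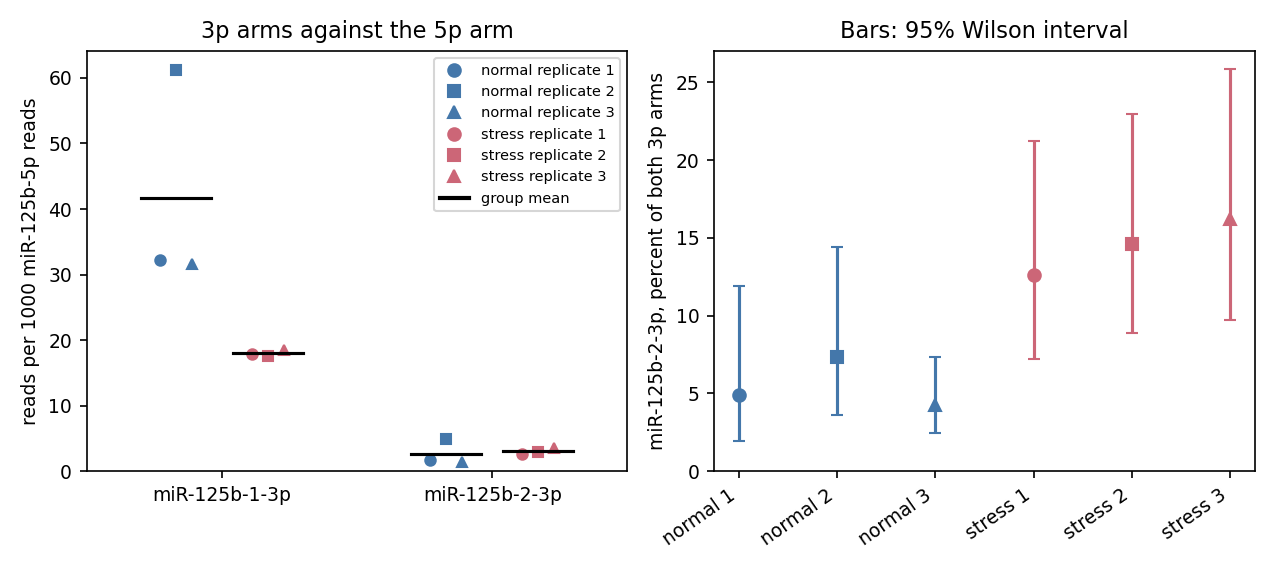
Left, reads of each miR-125b 3p arm per 1000 reads of miR-125b-5p in the 6 samples, with group means as bars; right, miR-125b-2-3p as a percent of both 3p arms, with 95% Wilson intervals. miR-125b-1-3p is at 31.6 to 61.2 in normal and 17.6 to 18.5 in stress samples, and the share of the chromosome 16 copy is 4.27% to 7.37% in normal and 12.6% to 16.3% in stress samples.

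Profiles over the 6 samples were compared by the root mean square distance of log2 CPM after centring each miRNA. Nearest to miR-99a-5p, the miR-99/100 member with the highest mean TMM-scaled CPM over all samples though not in stress sperm, were miR-340-3p (0.17), miR-24-3p (0.20) and miR-26a-5p (0.21), where the median distance of the tested non-members was 0.57. Nearest to miR-125a-5p, the miR-125 member with the highest mean TMM-scaled CPM over all samples though not in stress sperm, were miR-98-5p (0.19), miR-128-3p (0.22) and miR-5099 (0.26), with a median distance of 0.75. Of these 6 only miR-128-3p passed in edgeR (−1.12, adjusted p = 0.031), and miR-98-5p was at −0.98 (adjusted p = 0.051).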

How the data were processed

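Small RNA of 6 sperm samples was analysed. Per the labels' protocols RNA was taken up in TRIzol and libraries were made with an Illumina TruSeq kit; Bowtie is named in the submitters' processing notes, without a version, and with build, read filters and counting not given in the sources used here. Values of the deposited miRNA table are expected counts (92.0% of values whole within 0.001). The deposited piRNA and tsRNA tables hold RPM scaled by the authors within each table, and served only for library totals.

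Counts were rounded and tested in edgeR 4.0.16 (R 4.3.3; filterByExpr minimum count 10, TMM, quasi-likelihood, Benjamini-Hochberg), checked on simulated data; SE is the log2 fold change divided by the square root of F. DESeq2 1.42.0 was an alternative. Ratios and 3p shares (at least 10 reads over both arms) used exact permutation tests in scipy 1.17.1. Same-numbered replicates did not deviate together (r = 0.11, −0.21 and 0.12), so no pairing was used. Features named were all members, let-7 features of the clusters, features sharing a member's seed, miR-10a and miR-10b, and the 3 nearest profiles of 2 members. Members and lists were chosen with earlier results of these data known. miR-99a-3p was not analysed here. Intervals cover counting error only, and reads carry no molecular identifiers that are known.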

Additional observations from a re-analysis of the deposited data

How the results depend on the processing

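The 30 calls over all miRNAs became 106 scaled to the miRNA total (96 higher and 10 lower), 17 with the total of the 3 tables, 47 in DESeq2 (17 higher, 30 lower) and 49 with all low miRNAs kept; leaving out a replicate gave 17 (without stress replicate 3) to 55 (without normal replicate 3). The value of 1 tsRNA read is unsure, and a second estimate, added after the data were seen, gave 4. Of the members, 1 was called with RLE, DESeq2 and TMM (miR-125b-1-3p), 0 with either 3-table total (miR-125b-1-3p at −0.91 and −1.05), and 0 to 1 without a replicate. With the replicate block 28 miRNAs were called in edgeR. There miR-125b-1-3p was at −1.08 (adjusted p = 0.054) and miR-125a-5p at −0.87 (adjusted p = 0.032). The labels do not say whether the replicate numbers pair the samples. Signs turned for miR-99a-5p (0.62 with the miRNA total, −0.31 to 0.15 without a replicate), miR-99b-5p (0.50 with the miRNA total), miR-99b-3p (0.73 with the miRNA total, 0.20 and 0.13 with the 3-table totals, 0.0369 with the block, −0.34 to 0.40 without a replicate), miR-125a-3p (0.0106 with the miRNA total) and miR-125b-5p (−0.0589 with the second 3-table total, −0.14 to 0.23 without a replicate), none of them called. Outside let-7 and miR-148a, the share of miR-99/100 was higher in stress by 0.481 percentage points (0.793 of all reads) and that of miR-125 by −0.325 (0.124 of all reads). Without a replicate the 3p share of miR-100 differed by −0.00645 to 0.0072, that of miR-125a by −0.0879 to 0.144, that of miR-99b by 0.295 to 0.760 and that of miR-125b by −2.67 to −1.17 percentage points, and the miR-125 share of all reads by 0.0341 to 0.191. The 7 ratios kept their sign in every setting run, though miR-99b-5p to let-7e-5p ranged from 0.78 to 1.55 and miR-99b-5p to miR-125a-5p from 0.16 to 1.02 on the log2 scale. Causes were not tested. The 3p arms, at up to 281 reads, limit what depth can show.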
